A study of Drosophila melanogaster with 2 samples.

Results

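Among genes that start back to back with a close neighbour, dBigH1 ChIP over input was lower than among genes arranged in other ways. The set held 1046 of the 15627 genes in the deposited table. They were rows on the arms 2L, 3L or 3R (build dm3) whose symbol is CG followed by digits, the form used for genes with no given name when the table was made. Each was at least 500 bp wide, did not lie inside another row, and had its 5′ end at most 500 bp from that of a non-overlapping gene on the other strand pointing away from it. Positions and the form of the symbol chose them, and the rule used no ChIP or input value. Each value covers a whole gene, introns included, and the DNA between the starts, where the promoters lie, has no value in the table.

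A single ChIP library, made with an antibody to dBigH1, was set against a single input library, with no antibody. Both came from embryos of the w1118 stock, a laboratory strain with a white mutation, collected at 0 to 2 h. Neither group had a second library, so differences have no replicate check, no p-value is given, and all 95% intervals cover read counting only. The table assigned 5206548 ChIP reads and 3696767 input reads to genes.

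Linker histones of the H1 family bind nucleosomes where the DNA enters and leaves, and dBigH1 is the form that fills this role in the early fly embryo before its genome becomes active, and in the germ line. Genes that start back to back are common in the compact fly genome, where many serve every cell and have promoters bound by insulator proteins such as BEAF-32. Promoters of active genes are typically open, with few nucleosomes.

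The 1046 genes formed 755 divergent pairs with 1507 genes in all. In 293 pairs both genes met the rule, and in 462 pairs the partner did not, most often because it had a given name. The distance between starts had a median of 267 bp, with quartiles of 158 and 356 bp, and ran from 1 to 500 bp. For 605 genes the nearest partner also had a CG number, for 398 it had a given name, and for 43 the table gave no symbol. A second partner within 500 bp was present for 19 genes, and the nearest was used. A current RefSeq symbol (Release 6, used for names only) was found for 1043 genes, of which 367 now have a name other than the one in the table.

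The gene of dBigH1 itself, CG3509 (3R 10489165 to 10490544, plus strand), was among the 1046 and was singled out after its values were seen. It starts 251 bp from Rad17 (3R 10486898 to 10488914, minus strand), which codes for a clamp loader of the DNA damage checkpoint. CG3509 had 117 ChIP and 81 input reads, ChIP and input levels of 3.41 and 3.37 as log2(RPKM + 1), and a log2 ratio of 0.04 (interval -0.34 to 0.42). RPKM counts reads per length of gene and per depth of library, and the log2 ratio is the ChIP value minus the input value. Rad17 had 123 ChIP and 87 input reads and a log2 ratio of 0.01 (-0.35 to 0.37). Pooled over both genes the log2 ratio was 0.03 (-0.26 to 0.32), computed without the added 1 RPKM as in all pooled values. The ChIP and input values of this pair thus differed by less than counting error.

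The divergent CG genes had a median log2 ratio of -0.11, with quartiles of -0.28 and 0.04. Over all 15627 genes the median (from here on the table median) was -0.04, with quartiles of -0.23 and 0.14. The set that differs from the divergent genes only in the rule on starts is the 2891 other CG genes of the same arms, also at least 500 bp wide and not inside another row. Their median was 0.03, with quartiles of -0.15 and 0.19, so the divergent genes lay 0.15 lower on the log2 scale. Pooled reads gave -0.08 (interval -0.09 to -0.07, from 190638 ChIP and 143767 input reads) for the divergent genes and 0.07 (0.06 to 0.07) for the other CG genes. Individual divergent genes ran from -1.05 to 0.79, so the spread among them was many times the shift of their median.

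**Figure D1:**
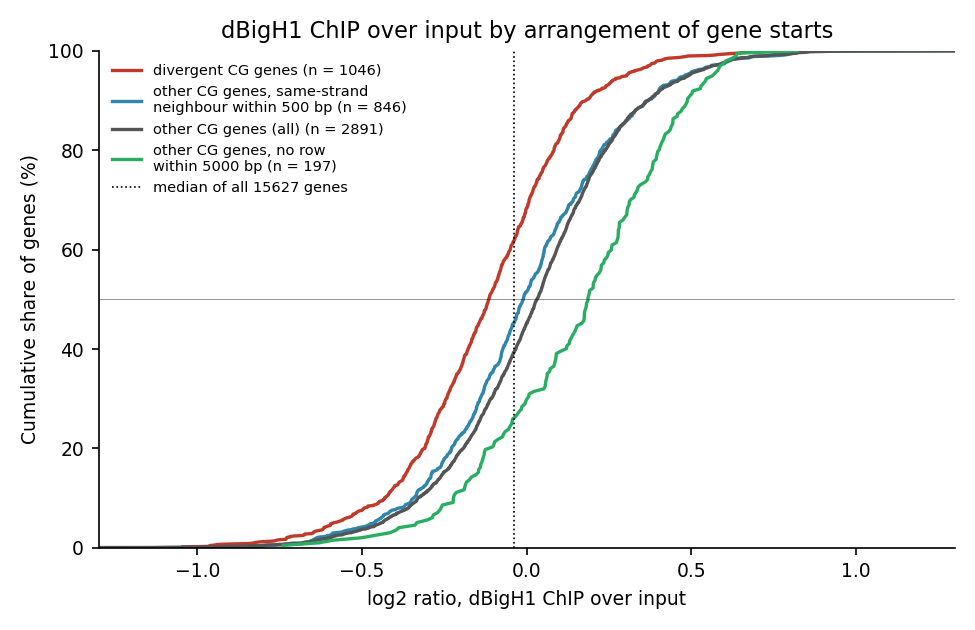
Cumulative share of genes (percent) against log2 ratio of ChIP over input for divergent CG genes (n = 1046) and 3 sets of other CG genes of the same arms, 2 of which are parts of the third. The curve of the divergent genes lies to the left, with a median of -0.11, and that of genes with no other row within 5000 bp lies to the right, with a median of 0.19.

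By the medians of each set, most of this difference lay in the input. The median input level, as log2(RPKM + 1), was 3.004 in divergent genes and 2.89 in other CG genes, a difference of 0.11. The median ChIP level was 2.88 in divergent genes and 2.93 in other CG genes, a difference of -0.05. Set against all genes, the ChIP level of divergent genes was the same to 2 decimals (2.88 in both), while their input level was 0.09 higher. By these medians, the low ratio went with more input reads per length more than with a low ChIP level. Within bins of similar input, given below, the lower ratio shows as a lower ChIP level, since the input is then nearly held. The source of the input difference was not tested.

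**Figure D2:**
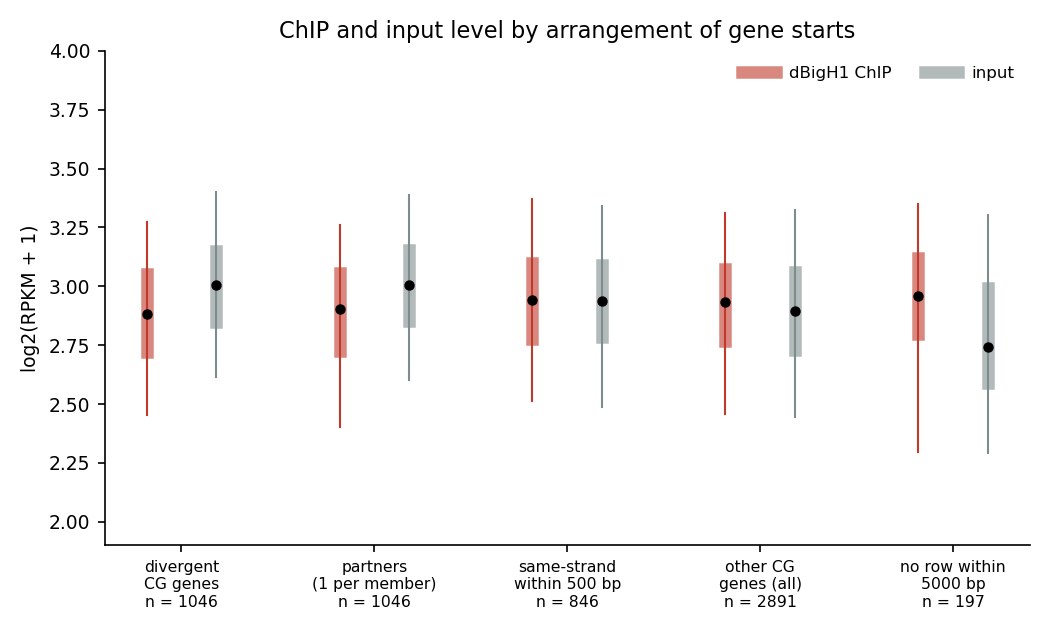
ChIP level (red, left of each pair) and input level (grey) as log2(RPKM + 1), with medians as dots, quartiles as bars and the central 90% of genes as lines, by arrangement of gene starts. In divergent CG genes the medians were 2.88 (ChIP) and 3.004 (input), and in genes with no row within 5000 bp they were 2.96 (ChIP) and 2.74 (input).

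Because the ratio has the input as its denominator, genes with high input tend to have low ratios in any set. The difference between divergent and other CG genes was therefore also taken within 5 bins of input level. It ran from -0.14 in the lowest bin (medians of 0.09 over 104 divergent and 0.23 over 684 other genes) to -0.09 in the highest (-0.26 over 290 divergent and -0.17 over 498 other genes). Divergent genes were lower in all 5 bins, and weighted by their numbers the difference was -0.10. With input nearly held within a bin, a lower ratio is largely the same fact as a lower ChIP level. The median ChIP level of divergent genes was accordingly below that of other CG genes in all 5 bins. It was 2.66 against 2.78 in the lowest bin and 3.03 against 3.09 in the highest.

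Counted gene by gene, high divergent genes were few. A log2 ratio of at least 0.5 was reached by 11 divergent genes (1.05%) and 132 other CG genes (4.57%), against 4.53% of all genes. A log2 ratio of at most -0.5 was reached by 79 divergent genes (7.55%) and 108 other CG genes (3.74%). Over all genes that share was 7.31%, so the share of low divergent genes was close to the background of the table, which includes short genes with few reads. The 95% interval lay above the table median for 46 divergent genes (4.40%) and 456 other CG genes (15.8%), against 10.6% of all genes. It lay below for 116 divergent genes (11.1%) and 163 other CG genes (5.64%), against 9.59% of all genes. In plain counts, 646 divergent genes (61.8%) were below the table median, as were 1136 other CG genes (39.3%).

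The partners, which did not have to meet the rule on symbol or width, gave similar values. One per divergent gene, they had a median log2 ratio of -0.10, with quartiles of -0.28 and 0.05. The 461 partners that were not themselves in the set had a median of -0.11 and a median width of 2286 bp, against 1793 bp for the divergent CG genes. Among divergent CG genes, the 398 with a named partner had a median of -0.15, and the 605 whose partner also had a CG number -0.10. The 43 whose partner had no symbol had a median of -0.03, close to the table median. Rows without a CG number, filtered in the same way, had a median of -0.13 over 1097 divergent genes and -0.01 over 2655 others.

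The log2 ratio was lowest where the starts were closest. For the 161 genes with starts at most 100 bp apart the median was -0.20 (quartiles -0.36 and -0.0016). In steps of 100 bp it was -0.11 up to 200 bp (163 genes), -0.10 up to 300 bp (306 genes), -0.12 up to 400 bp (260 genes) and -0.06 up to 500 bp (156 genes). Beyond the limit it was -0.04 up to 1000 bp (320 genes), -0.01 up to 2000 bp (341 genes) and 0.05 farther away (2228 genes). Inside the limit the relation was weak, with a Spearman rho of 0.09 over 1046 genes. Among the 404 divergent genes with at least 100 input reads it was 0.01, with a median of -0.13 over the 54 closest (at most 100 bp) and -0.11 over the next 53 (up to 200 bp). With these deeper genes the closest step was thus no longer well apart from the next. At the limit itself, CG8478 (starts 500 bp apart) had a log2 ratio of -0.06, CG2926 (498 bp) -0.06 and CG14073 (496 bp) -0.24. Just outside it, CG10825 (502 bp) had -0.65, CG11880 (503 bp) -0.02 and CG5167 (504 bp) -0.45.

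**Figure D3:**
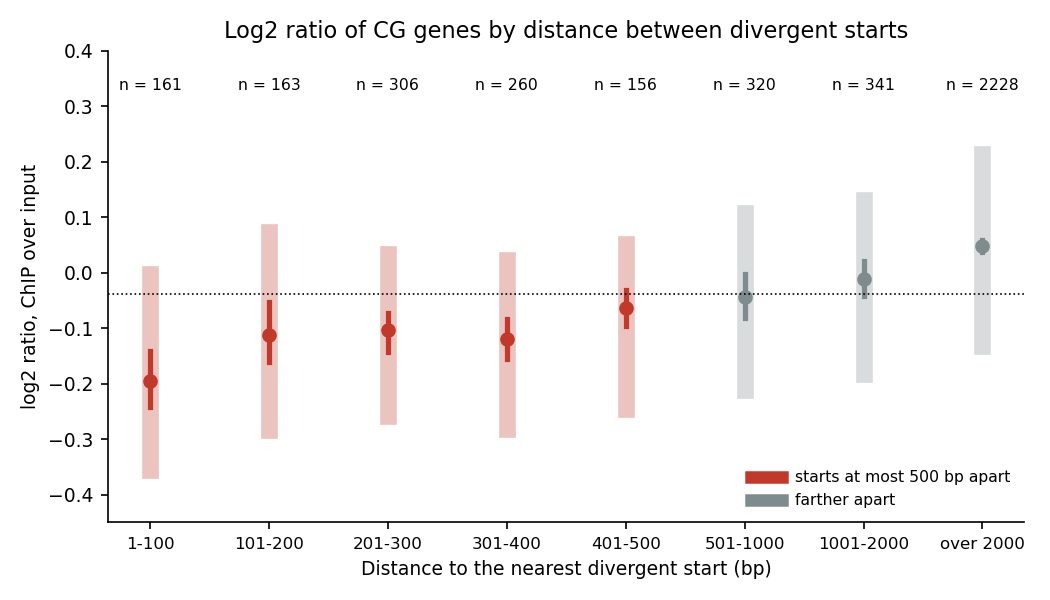
Log2 ratio of CG genes by distance (bp) to the nearest divergent start, with medians as dots, intervals of the median from ordered values as thin bars and quartiles as wide bars, for genes inside the 500 bp limit (red) and outside it (grey). The median is -0.20 at up to 100 bp and 0.05 beyond 2000 bp, and the dotted line is the median of all genes (-0.04).

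A close neighbour of another kind went with a smaller shift. The 846 other CG genes with a same-strand gene ending at most 500 bp before their start had a median of -0.01 (quartiles -0.17 and 0.19), so divergent genes were 0.10 lower than these. The 197 CG genes with no row within 5000 bp of either end had a median of 0.19 (quartiles -0.04 and 0.37), 0.30 above the divergent genes. In those the input was low, at a median of 2.74. Divergent genes also had close neighbours at their other end, which the rule did not use. Their 3′ end overlapped another row or lay within 500 bp of one in 852 genes (81.5%), against 56.8% of the other CG genes.

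A close 3′ neighbour went with a lower ratio in each set. In divergent genes the median was -0.13 with one (852 genes) and -0.06 without (194 genes). In CG genes behind a same-strand neighbour it was -0.03 with one (627 genes) and 0.06 without (219 genes), and in the remaining CG genes -0.00096 with one (1016 genes) and 0.10 without (1029 genes). Divergent genes were lowest at either kind of 3′ end. The first gene past the 3′ end, within 2000 bp and not itself in a pair, had a median of -0.07 beyond divergent genes (476 genes) and 0.02 beyond other CG genes (1476 genes). A close gene at the 3′ end thus moved with the ratio, and beyond this split the part of gene density in the difference was not tested. The split also follows overlap. Another row overlapped 50.2% of divergent genes with a close 3′ neighbour and 6.19% of those without, and reads of overlapping genes cannot be assigned to one gene.

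Gene width and arm were examined in the same way. At widths from 500 to under 1000 bp the divergent genes had a median of -0.16 (178 genes) and the other CG genes 0.08 (548 genes), a difference of -0.24. The difference was -0.15 from 1000 to under 2000 bp, -0.11 from 2000 to under 5000 bp and -0.09 at 5000 bp and over, where 124 divergent genes had a median of -0.03 and 604 other genes 0.06. The difference was therefore smaller in wider genes, and its sign was the same at every width. The cause of this trend was not tested. By arm, the divergent genes had medians of -0.12 on 2L (291 genes), -0.09 on 3L (343 genes) and -0.12 on 3R (412 genes), and the other CG genes 0.04, 0.02 and 0.04. Another row overlapped 440 of the divergent genes, where reads cannot be assigned to one gene. Without those, the medians were -0.11 over 606 divergent genes and 0.06 over 2047 other CG genes.

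The lowest pairs by pooled reads, among the 730 pairs with at least 20 input reads in both genes, each joined a CG gene to a named gene. CG4553 (3R 21301358 to 21302637) and MED28, a subunit of the Mediator complex that links transcription factors to RNA polymerase II, start 88 bp apart. CG4553 had 45 ChIP and 56 input reads (log2 ratio -0.68, interval -1.17 to -0.18), and MED28 had 28 ChIP and 43 input reads (-0.95, -1.57 to -0.34). Both genes lay below the table median by their intervals, and the pooled log2 ratio was -0.93.

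CG8209 (3L 7969506 to 7970949) had 56 ChIP and 74 input reads and a log2 ratio of -0.76 (-1.20 to -0.32). Its partner HP4, a protein that associates with the heterochromatin protein HP1, had 37 ChIP and 38 input reads (-0.46, -1.06 to 0.14). CG32163 (3L 16580257 to 16581243) had 51 ChIP and 68 input reads (-0.80, -1.28 to -0.32), and its partner Syx8, a syntaxin of membrane fusion, 33 and 33 reads (-0.40, -1.004 to 0.21). In both pairs the CG gene was the lower, and the interval of its partner included the table median.

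In the next pairs the named gene was the lower. Spps, a zinc finger factor that binds Polycomb response elements, had 126 ChIP and 174 input reads (-0.81, -1.096 to -0.52), and CG13609 86 and 77 reads (-0.29, -0.69 to 0.12). Prosbeta3, a subunit of the proteasome, had 31 ChIP and 48 input reads (-0.95, -1.52 to -0.37), and CG11982, now named Iru and coding for a ubiquitin ligase, 62 and 61 reads (-0.39, -0.84 to 0.06). These pairs were ranked by the same reads as their intervals, so low intervals follow in part from the ranking.

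The highest pairs mostly joined CG genes to rows with no symbol. CG42682 (2L 14842128 to 14843101) had 79 ChIP and 35 input reads (0.60, 0.08 to 1.13), and its partner FBgn0264349 43 and 22 reads (0.42, -0.26 to 1.10). FBgn0262880 had 76 ChIP and 23 input reads (1.08, 0.48 to 1.68), while its partner CG7025 had 96 and 57 reads (0.23, -0.19 to 0.65). CG4271 had 50 and 24 reads (0.49, -0.14 to 1.12), and the row opposite it 78 and 40 reads (0.41, -0.08 to 0.90). Of these, FBgn0262880 and CG42682 had intervals above the table median.

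CG34025 (3L 2959722 to 2961049) had 115 ChIP and 52 input reads (0.58, 0.15 to 1.01), and its partner Or63a, an odorant receptor gene, 125 and 70 reads (0.29, -0.07 to 0.66). CG10588 (3L 20950034 to 20953270) was high by its interval, with 274 ChIP and 115 input reads (0.67, 0.39 to 0.95). Its partner CG10586, now named Sems, codes for a seminal fluid protease and had 49 and 46 reads (-0.34, -0.87 to 0.19). That pair was called high by 1 of its genes only, and the intervals of its 2 genes did not overlap.

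**Figure D4:**
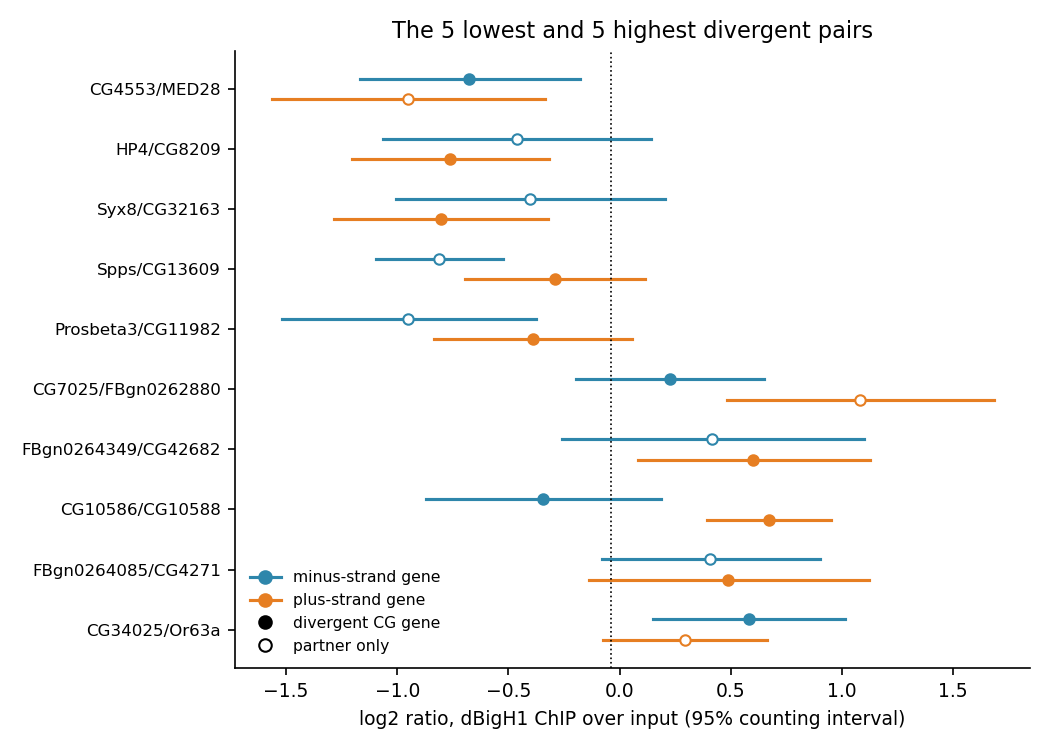
Log2 ratio of ChIP over input with 95% counting intervals for both genes of the 5 lowest and 5 highest pairs by pooled reads, with filled dots for divergent CG genes, open dots for genes that are only partners, and a dotted line at the median of all genes (-0.04). In CG4553/MED28 both intervals lie below the line, and in CG10586/CG10588 they lie apart, at -0.34 and 0.67.

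The 2 genes of a pair resembled each other weakly. Both lay below the table median in 320 of 755 pairs (42.4%), 1 of the 2 in 305 and neither in 130. The minus-strand gene was below in 63.2% of pairs and the plus-strand gene in 62.0%, and the product of these shares is 39.2%, so the share with both below was close to what the single genes give. The median size of the difference within a pair was 0.21. The intervals of the 2 genes did not overlap in 21 divergent pairs (2.78%), against 3.72% of same-strand and 3.92% of convergent neighbours. The same-strand and convergent pairs, here and below, were not limited to genes outside the divergent set and can share genes with it. Spearman's rho across the 755 pairs was 0.16 between the minus-strand and the plus-strand gene. It was 0.34 across 860 pairs of neighbours on the same strand and 0.23 across 587 convergent pairs, both at most 500 bp apart. Among pairs with at least 100 input reads in both genes it was 0.30 (147 divergent pairs), 0.24 (153 same-strand pairs) and 0.25 (184 convergent pairs). The genes of a pair share both libraries and their surrounding DNA, and most have few reads, so these values describe the 2 libraries only.

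**Figure D5:**
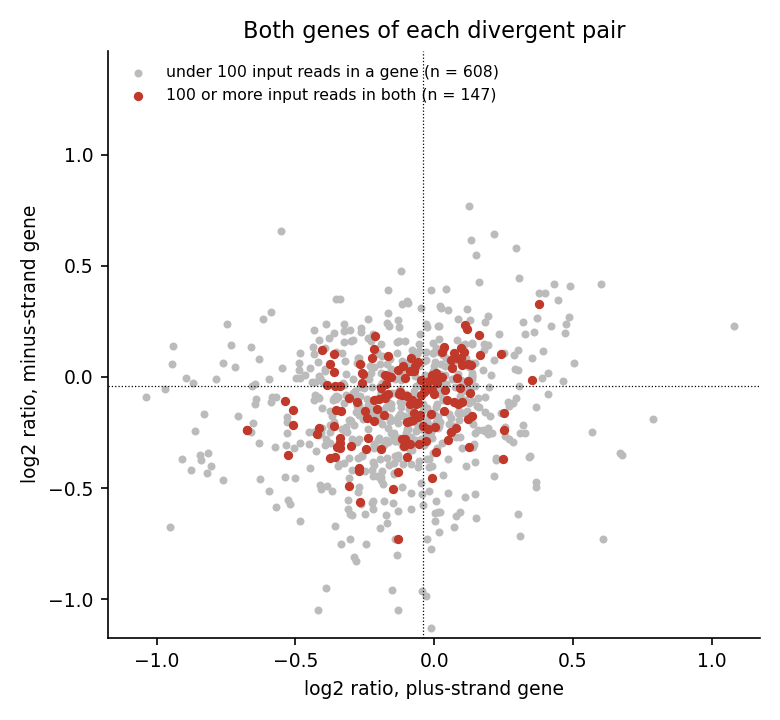
Log2 ratio of the minus-strand gene against that of the plus-strand gene for 755 divergent pairs, with the 147 pairs of at least 100 input reads in both genes in red and dotted lines at the median of all genes (-0.04). In 320 pairs (42.4%) both genes lie below the lines, where the product of the shares of single genes is 39.2%, and Spearman's rho is 0.16 over all pairs and 0.30 over the red ones.

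Both genes were below the table median by their intervals in 17 pairs (2.25%), and both above in 1. The product of the shares of single genes is 1.58% for low and 0.195% for high intervals. Both were low in 1.40% of same-strand and 2.21% of convergent neighbours, where the products are 0.613% and 1.01%. The divergent share was thus close to the convergent one but nearer to its own product, and few pairs stand behind each. Both were high in 3.02% of same-strand and 1.87% of convergent neighbours (products 1.39% and 0.959%), against 0.132% of divergent pairs. The following were named after their values were seen. Among the 17 were pairs of CG genes with RpL3 and RpL13A of the large ribosomal subunit, mRpL35 of the mitochondrial ribosome, MED31 of the Mediator complex, the Hedgehog signal transducer smo and the lipase bmm. CG6693 had a log2 ratio of -0.65 (61 ChIP and 73 input reads) beside RpL3 at -0.48 (141 and 148 reads). CG6455, now Mitofilin and a membrane organizer of mitochondria, had -0.42 (178 and 178 reads) beside mRpL35 at -0.88 (35 and 50 reads). CG17078 had -0.49 (129 and 136 reads) beside smo at -0.31 (300 and 271 reads). The replication gene chif and CG42231, which overlap, are 1 locus that was counted as 2 of the 17 pairs, with the same partner, CG4455 (-0.67, 109 and 130 reads). The pair above by both intervals was CG42235 (0.38, 846 and 444 reads) with FBgn0262904 (0.33, 284 and 156 reads). In 4 pairs 1 gene was below and the other above, as for CG10462 (0.24, 306 and 181 reads) and Nf-YB, a subunit of a CCAAT-binding factor (-0.75, 44 and 57 reads).

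The pairs with the most reads owed them to 1 long gene each. The kinase gene nmo had 5690 ChIP and 4998 input reads and a log2 ratio of -0.27 (-0.32 to -0.22), below the table median. Its partner CG8038, now Pop4 and coding for a subunit of RNase P, had 42 and 40 reads (-0.36, -0.93 to 0.21). The gene klar, which acts in nuclear and organelle positioning, had 7030 and 5101 reads (-0.02, -0.07 to 0.02), and its short partner CG17180 55 and 56 reads (-0.44, -0.91 to 0.04). CG32264 had 5656 and 3960 reads (0.02, -0.03 to 0.07), and its partner IntS10, a subunit of the Integrator complex, 121 and 115 reads (-0.36, -0.69 to -0.03). In each the short gene was the lower. Its interval overlapped that of the long gene for CG8038 and CG17180, and the intervals of IntS10 and CG32264 lay just apart.

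Pairs with the shortest distance did not share one level. CG4730 and CG5039, whose starts are 1 bp apart, had log2 ratios of -0.28 (88 ChIP and 78 input reads) and -0.09 (51 and 39 reads). CG17259, now SerRS and coding for the seryl-tRNA synthetase, had -0.42 (84 and 84 reads) beside CG17260 at -0.30 (56 and 51 reads), 8 bp apart. CG6012 had 0.17 (90 and 56 reads) beside FBgn0264440 at 0.02 (64 and 45 reads), also 8 bp apart. Within each pair the intervals overlapped.

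The largest differences within a pair reached about 1 on the log2 scale. Sfp24F, a seminal fluid protein gene, had a log2 ratio of 0.14 (47 ChIP and 30 input reads) beside CG15432 at -0.94 (33 and 49 reads). CG3088 had -0.35 (27 and 26 reads) beside CG3306 at 0.68 (66 and 27 reads). CG11586 had -0.72 (48 and 61 reads) beside VhaM9.7-a, a proton pump subunit, at 0.31 (52 and 29 reads). The gene pairs with the largest differences thus had few reads. The pair nearest the median of all pairs was thoc7, of the THO complex of RNA export (-0.61, 53 and 61 reads), with CG16940, now the exoribonuclease Dis3l2 (0.02, 261 and 183 reads).

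By function, the share of genes in a pair was counted in each group, many of them small. Of the 9664 rows on the 3 arms, 15.6% were in a pair. These rows include short genes and genes inside others, so that share is a rough background. Among mitochondrial ribosomal protein genes it was 13 of 49, among cytoplasmic ribosomal protein genes 16 of 55, among respiratory chain and ATP synthase genes 11 of 47, among Vps and Rab genes of vesicle traffic 13 of 35, and among tRNA synthetase genes 6 of 22. It was 8 of 29 for translation factor genes, 10 of 45 for genes of RNA polymerase II and its factors, 2 of 10 for nucleoporin and 4 of 9 for spliceosome genes. Among these groups, nucleoporin (20%) and RNA polymerase II genes (22.2%) were nearest to the share of all rows. The proteasome genes, with 5 of 29 (17.2%), were near it. None of 6 MCM and origin genes of DNA replication was in a pair, a group too small to set against that share. None of 34 cytochrome P450 genes, 43 cuticle protein genes, 31 ionotropic receptor genes or 16 odorant-binding protein genes was in a pair, and 1 of 35 odorant receptor, 3 of 39 gustatory receptor and 1 of 38 accessory gland genes was. A gene with a given name could enter only as the partner of a CG gene, so these counts leave out pairs of named genes.

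The 13 mitochondrial ribosomal protein genes in pairs all lay below the table median, and for 5 (38.5%) the interval did so as well. Of the 59 others of this kind in the table, 43 (72.9%) lay below and 8 (13.6%) had a low interval, against 9.59% of all genes. The others of a group are all its remaining genes, on any chromosome, and can include divergent pairs of named genes. The median log2 ratio of the 13 was -0.50, against -0.25 for the 59 others. These 13 are set out by their ends next. They ran from mRpS22 (-1.04 with 37 ChIP and 63 input reads, -1.53 to -0.54) to mRpS18A (-0.25 with 38 and 33 reads, -0.87 to 0.38). For the 16 cytoplasmic ribosomal protein genes the median was -0.36, against -0.26 for the 74 others. Of the 16, 15 were below the table median and 5 (31.2%) had a low interval. Of the 74 others, 61 (82.4%) were below and 13 (17.6%) had a low interval. They ran from RpL34b (-0.99, 32 and 51 reads) to RpS25 (-0.01, 78 and 56 reads). These genes of protein synthesis were low in the rest of the table too.

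Among the 11 respiratory chain and ATP synthase genes, all of which had CG numbers in the table, the median was -0.20, against -0.11 for the 65 others. Those with low intervals (18.2%, against 9.59% of all genes) were the complex I subunit genes CG15434 (ND-B8, -0.82, 29 and 39 reads) and CG3214 (ND-B17.2, -0.75, 37 and 48 reads). The other complex I genes were CG9140 (ND-51, -0.21, 78 and 66 reads) and CG12079 (ND-30, 0.03, 46 and 32 reads). Their intervals included the table median. The highest of the 11 was CG31477 (ATPsynepsilonL, 0.15, 41 and 26 reads). The 10 genes of RNA polymerase II, Mediator and the general factors had a median of -0.31, against -0.22 for the 51 others, with MED28 lowest and TfIIA-L highest (-0.03, 293 and 214 reads).

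The order between genes in pairs and others of their kind was not the same in every group. Because the others can include divergent genes, these medians do not set divergent against non-divergent genes. The 13 Vps and Rab genes had a median of -0.10, against -0.13 for the 50 others, from CG4764 (Vps29, -0.42, 42 and 42 reads) to CG32113 (Vps13D, 0.30, interval 0.17 to 0.43, from 1013 and 569 reads). CG32113 and CG15523 (Vps13B, 0.22) were above the table median by their intervals, 15.4% of the 13 against 10.6% of all genes. For the 8 translation factor genes the median was -0.09, against -0.21 for the 43 others, and the 5 proteasome genes -0.16, against -0.24 for 41. In these groups the genes in pairs were the higher. The 6 tRNA synthetase genes had a median of -0.16, against -0.15 for 27. The genes in pairs were the lower in the next 3 groups. The 4 spliceosome genes had -0.26, against -0.17 for 10, and the 2 nucleoporin genes -0.33, against -0.16 for 19. The 3 gustatory receptor genes in pairs had a median of -0.17, against 0.16 for the 55 others, and none of the 3 was off the table median by its interval.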

How the data were processed

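Per the file headers, the authors deposited log2 RPKM per gene for both libraries, and a score headed MAnorm log2 fold change. Per the labels, 3.5 ng of DNA went into each library (18 PCR cycles, single reads of 50 nt). CASAVA 1.9, Bowtie2, FastQC 0.10, R 2.15 and build dm3 appear in the submitters' processing notes without roles. The counting tool, read filters and annotation version were not stated there or in the labels. Undoing the log and subtracting 1 left whole reads for 100% of values (tolerance 1e-05) at library totals of 8803832 (ChIP) and 6272887 (input), so the deposited log2 columns are log2(RPKM + 1). Adding 1 RPKM understates ratios of genes with low signal. The score did not behave as a log2 ratio and served only as an alternative.

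Intervals of genes, pairs and pooled sets are exact Clopper-Pearson intervals of the ChIP share of reads. They cover counting error only, and PCR copies are not independent molecules. No test was run. A row with exactly the coordinates of another counted as inside it, which left out 36 CG rows. The genes, lists and splits were chosen with earlier results of these data known, and the splits by 3′ neighbour and by 100 input reads were added after the values were seen. Named pairs were the 5 lowest and 5 highest by pooled reads, the 3 with most reads, the 3 closest, the 3 most unequal and the one nearest the median, each with at least 20 input reads per gene. Also named were 3 genes on each side of 500 bp and the ends of each functional group, where groups are patterns of current symbols. Alternatives covered the added RPKM, filters, scaling, distance limit, arms and comparison set. A planned split by promoter motif was not made, since promoter sequence is not used here. Read recovery, pooled ratios and intervals without the added 1 RPKM were tested on simulated independent reads, and the pairing rule on a made-up chromosome. Intervals with the added 1 RPKM, PCR copies and overlapping genes were not simulated. Versions were matplotlib 3.10.9, statsmodels 0.14.6, scipy 1.17.1, numpy 2.4.6, pandas 2.3.3 and Python 3.11.15.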

Additional observations from a re-analysis of the deposited data

How the results depend on the processing

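No paired analysis was possible because each group had 1 library. Apart from the score, the median of divergent CG genes was negative under all 19 alternatives (-0.17 to -0.07) and their difference from other CG genes under all 25 (-0.30 to -0.09). Of the recomputed summary values, 108 stayed near those reported and 35 moved. For shares, near was broad: 10.7% at or below -0.5, with input at or above its median, counted as near 7.55%. No value reversed, but a share of genes cannot. Changing the added RPKM cannot change the sign of a gene's ratio, so the divergent and partner medians had to stay negative there. Centring on the median of all genes left the difference at -0.146 by construction. The absence of reversals thus bears only on the other values. With 0 RPKM added, the divergent median was -0.132, the difference -0.169 and the share at or above 0.5 was 1.72%. With 0.1 RPKM added, the difference was -0.166. With 5 RPKM added, the divergent median was -0.075, the difference -0.094, the partner median -0.067, the share at or below -0.5 was 1.34% and that at or above 0.5 was 0.0956%, as a larger added value shrinks ratios. Among genes with input at or above its median these were -0.171 (divergent), -0.0903 (difference) and -0.154 (partners), with 0 genes at or above 0.5 and a correlation within pairs of 0.0799. With starts at most 250 bp apart, the divergent, partner and pair medians were -0.149, -0.130 and -0.143. Without overlapping genes, the pair median was -0.097 and the share at or above 0.5 was 1.82%. With any symbol, the partner median was -0.122. Without arm 3L, the correlation was 0.232.

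The deposited score, on another scale, gave -0.235 (divergent), -0.460 (difference) and -0.217 (partners). Centring on the median of all genes gave -0.076 (divergent) and -0.065 (partners), and a lowess curve -0.081 and -0.071. The difference was -0.102 over input bins, -0.105 against genes with a same-strand neighbour and -0.301 against isolated genes. Alternatives chosen after seeing the data gave, with at least 100 input reads, -0.091 (divergent), -0.115 (difference) and a correlation of 0.296, and with a close 3′ neighbour a difference of -0.116. Where the construction of an alternative does not show it, the cause was not tested. The split by promoter motif was not run. The median divergent gene has 80 input reads, so single genes can be told from the table median only when far from it.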
